A study of Bos taurus with 16 samples.

Results

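Among beef steers that gained weight well, some had eaten much and some had eaten little, and the papillae of the rumen wall were compared between these animals by RNA sequencing. The comparison takes the 4 libraries labelled high gain with high intake and the 4 labelled high gain with low intake, 8 of the 16 libraries of the study. The other 8 come from low-gain steers, 4 with high and 4 with low intake, and serve here for the choice of each gene's region, the shared estimate of the spread and the comparison of the intake effect between gain classes. All animals were crossbred steers aged 344 ± 48 days with free access to the same ration, which held 57.35% dry-rolled corn, 30% distillers grains, 8% alfalfa hay and 0.4% urea. No agent was given: animals were picked by the quadrant of gain and dry matter intake in which they fell, and the labels give the quadrant but no animal's gain or intake. Each title carries its own animal number, so a library is taken here as 1 animal.

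The rumen papillae are finger-like folds covered by a stratified squamous epithelium. Its outer layers form a cornified barrier against the rumen contents, and its inner layers take up the short-chain fatty acids made by the microbes. In those layers much of the butyrate taken up is turned into ketone bodies by mitochondrial enzymes, and the acid is balanced by exchange against bicarbonate and by proton and sodium transport. A core of connective tissue with a dense capillary bed carries the products away.

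A level here is read coverage averaged over the bases of a gene's best covered exon region, on the scale of the deposited table, and differences are log2 differences, high intake minus low intake, after adding 0.1 to each level. A level is per base, but the place of its region in the transcript differs between genes. That region held the last exon in 5585 tested genes and the first exon in 696. Levels of different genes, and sums over them, can thus be compared only roughly. Depth, estimated from the value of a single read, was 17.2 ± 2.55 M reads in high-intake libraries and 17.7 ± 2.60 M in low-intake libraries (SD, n = 4 each). Epithelial markers were present in all 8 libraries, with KRT5 between 79.1 and 232, TP63 between 18.8 and 61.6 and SOX2 between 21.4 and 52.0.

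The 8 libraries differed in how evenly transcripts were covered. The first-exon index, the median over 1548 genes of the log2 level of the first exon minus that of the other exons, lay between -1.24 and -0.76 in high-intake replicates 1, 2 and 3 and low-intake replicate 1. It lay between -2.64 and -1.98 in high-intake replicate 4 and low-intake replicates 2, 3 and 4, which are called thinly covered below. The name refers to first exons and not to depth. Estimated depth was 15.1 to 21.3 M reads in the thinly covered libraries and 15.2 to 20.9 M in the others. The thinly covered libraries were thus 1 of 4 at high intake and 3 of 4 at low intake. Fits below that leave them out keep 3 high-intake animals and 1 low-intake animal at high gain. Their differences rest on that 1 low-intake animal. The group means of the index, -1.36 ± 0.860 and -1.98 ± 0.548, differed by 0.615 (exact permutation test, two-sided, p = 0.314, Benjamini-Hochberg 0.679 over 5 library measures, smallest possible p 0.0286). With 4 libraries in each group this test cannot show that coverage was balanced. The share of bases on the mitochondrial genome was 16.3 ± 6.39% and 20.4 ± 7.05% (exact permutation p = 0.429, Benjamini-Hochberg 0.679). Correlations of log2 levels ran from 0.879 to 0.931 between well covered libraries, from 0.794 to 0.959 between thinly covered ones, and from 0.430 to 0.882 between the kinds. Gene values below are given library by library, with the coverage class named beside them, and its part in a difference was not tested for single genes. The cut between the classes, an index of -1.5, was set after the values were seen.

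**Figure D1:**
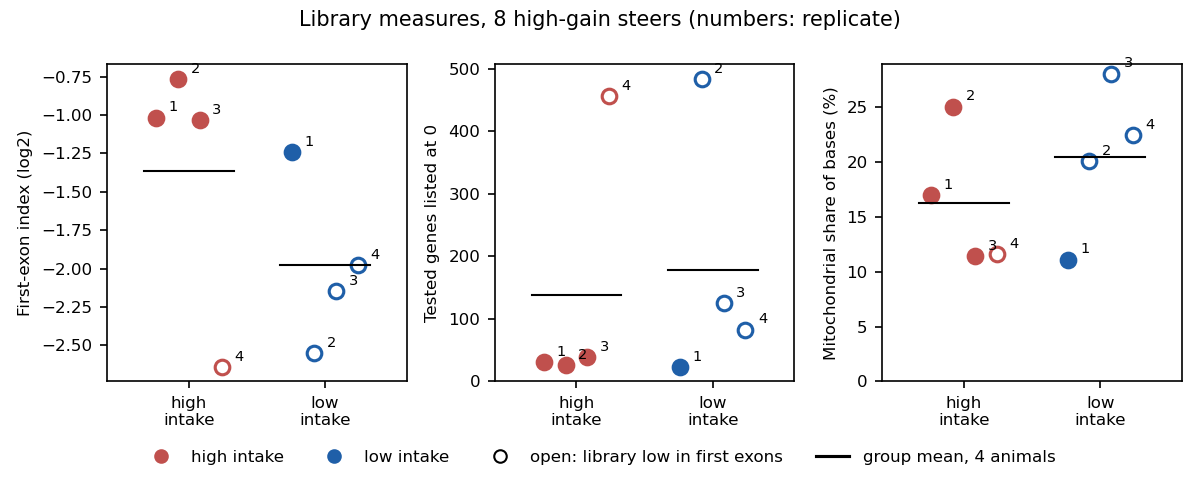
Library measures of the 8 high-gain steers by intake group: first-exon index (log2), number of tested genes listed at 0, and mitochondrial share of the bases in percent. Numbers are replicates, lines are group means of 4 animals, and open circles mark thinly covered libraries, which are 1 of 4 at high intake and 3 of 4 at low intake.

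No gene passed the test between high and low intake at high gain. Of 8703 genes tested with limma on all 16 libraries, 0 (0% of those tested) had a Benjamini-Hochberg adjusted p under 0.05, and the smallest adjusted p was 0.820, that of TRIM5. Without adjustment, 58 genes (0.666%) were higher and 220 (2.53%) lower at high intake with p under 0.05, fewer in all than the 435 that this threshold gives on 8703 genes with no differences. The split of these genes depended on the scaling: 20.9% of them were higher at high intake with the deposited scaling, 39.2% after median-ratio scaling and 55.0% after quantile normalization. The count of 278 became 1420 without high-intake replicate 4, 428 without low-intake replicate 1, 159 without high-intake replicate 1 and 156 without low-intake replicate 2, and 0 genes were called in each of these fits. The groups did not overlap in 24 genes that were higher (0.276%) and 106 that were lower (1.22%) at high intake. Below, genes are described by their values, and no difference named is past the test.

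The gene with the smallest p among those with a higher estimate at high intake was SERPINB1, an intracellular inhibitor of neutrophil serine proteases (chr23:50680976-50682591, UMD3.1, a region of exon 1 that also holds bases outside the annotated gene). Its level was 32.9, 15.6, 23.8 and 22.5 in high-intake replicates 1 to 4 and 6.35, 9.50, 13.0 and 8.66 in low-intake replicates 1 to 4. Every high-intake steer was above every low-intake steer, and the thinly covered high-intake library lay near its group mean. The difference was 1.32 ± 0.39 on the log2 scale (SE, n = 4 each, limma adjusted p = 0.869). In the region of its last exon it was 2.01, and 0.89 there with low coverage of first exons as a term in the fit.

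GALNT6, which starts mucin-type sugar chains on proteins (chr5:28613865-28615995, last exon), stood at 8.63, 5.88, 7.64 and 4.28 at high intake and at 2.82, 3.17, 3.65 and 1.22 at low intake. PTGES, the inducible prostaglandin E synthase (chr11:100143655-100144292, last exon), stood at 2.59, 0.90, 2.76 and 0.91 against 0.72, 0.30, 0.21 and 0.61. Neither gene overlapped between the groups, which by itself means that both were apart within each coverage class. Their differences were 1.31 ± 0.45 and 1.69 ± 0.60 (log2, SE), each with a limma adjusted p of 0.869.

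FAM50A, a nuclear protein associated with the spliceosome (chrX:40422999-40423502, last exon), was at 12.5, 10.9, 10.9 and 8.31 against 7.42, 6.36, 4.88 and 5.71. ALG1, the enzyme that adds the first mannose of the N-glycan precursor (chr25:4118504-4120233, last exon), was at 4.56, 3.42, 4.62 and 3 against 2.67, 2.02, 2.16 and 2.07. INO80C, a subunit of the INO80 chromatin remodeller, was at 7.03, 6.47, 8.33 and 5.64 against 5.25, 4.05, 4.47 and 4.62. In these 3 genes the groups were apart by narrow margins, and the differences were 0.80, 0.76 and 0.56 on the log2 scale.

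MATN4, a matrix protein of the matrilin family, was at 0.75, 1.87, 1.25 and 0.76 against 0.42, 0.59, 0.32 and 0.21. C13H10orf47, listed in RefSeq as a synonym of PROSER2, was at 1.82, 1.74, 2.16 and 2.57 against 1.13, 1.26, 1.32 and 0.57. Both were apart between the groups at low levels. CRYL1, a dehydrogenase of the uronate pathway, was at 27.1, 20.8, 34.0 and 12.6 against 13.2, 8.70, 9.62 and 7.36, so that high-intake replicate 4 overlapped with low-intake replicate 1. CELSR2, an atypical cadherin of planar cell polarity, was at 9.93, 9.20, 9.15 and 5.74 against 4.98, 4.41, 3.80 and 6.90, and again high-intake replicate 4 lay within the low-intake range.

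The log2 differences of greatest size among these 12 genes went with the coverage class. XAB2, a splicing and repair factor (chr7:17690083-17690235, exon 17 of 19), was at 6.98, 8.88, 5.02 and 0.26 at high intake and at 1.5, 0, 0 and 0 at low intake. ALS2CL, a relative of the guanine exchange factor alsin (chr22:53374993-53375116, exon 18 of 26), was at 3.23, 2.82, 2.11 and 0.31 against 1.49, 0, 0 and 0. The values at or near 0 of both genes are those of the 4 thinly covered libraries. The log2 difference of XAB2 was 4.04 in all libraries and 2.10 without the thinly covered ones, and that of ALS2CL was 3.11 and 0.81. With low coverage of first exons as a term, the differences were smaller, 0.97 for PTGES, 0.86 for GALNT6, 0.49 for FAM50A and 0.59 for CRYL1.

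**Figure D2:**
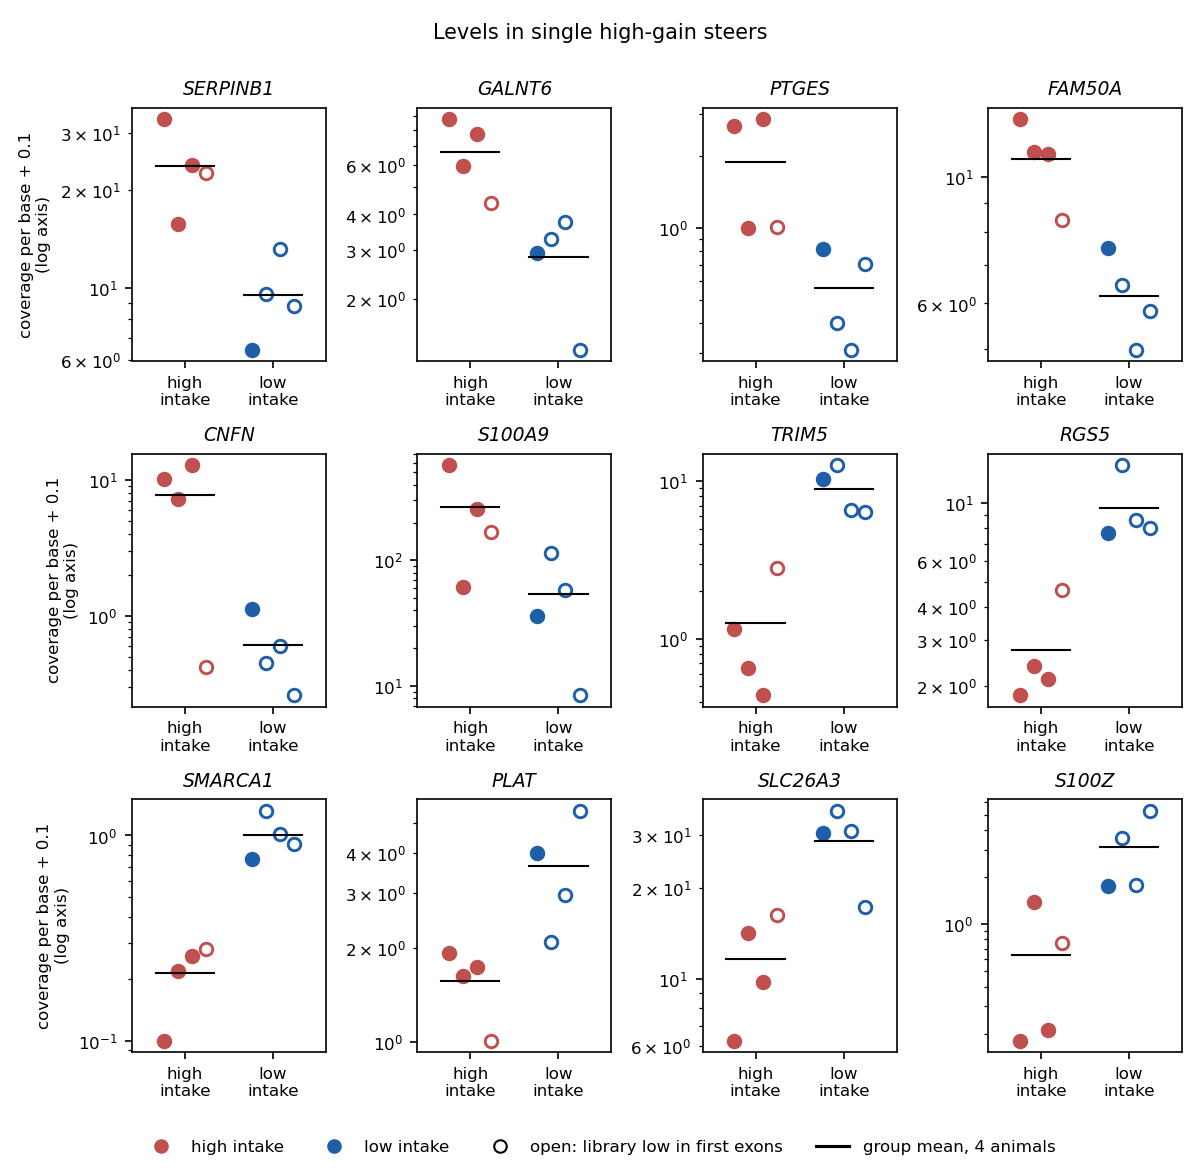
Level in each of the 8 high-gain steers of 6 genes with higher and 6 with lower estimates at high intake (coverage per base plus 0.1, log axis; replicates 1 to 4 from left to right; lines are means of 4 animals). Open circles are thinly covered libraries; the groups are apart in SERPINB1, GALNT6, PTGES, FAM50A and in the 6 genes from TRIM5 to S100Z, and overlap in CNFN and S100A9.

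All 12 genes with the smallest p among the lower estimates had groups that did not overlap. TRIM5, which encodes a factor that restricts retroviruses, came first, with levels of 1.06, 0.55, 0.34 and 2.70 at high intake and of 10.2, 12.5, 6.41 and 6.28 at low intake. The difference was -3.13 ± 0.58 (log2, SE, n = 4 each, limma adjusted p = 0.820). The table lists this symbol on 2 chromosomes, and these values belong to a region of 101 bases on chromosome 9 (chr9:57517515-57517615). In the best covered region on chromosome 15 (chr15:48428880-48429457), the chromosome on which RefSeq places TRIM5, the levels were 0.76, 0.52, 2.18 and 3.38 at high intake and 3.26, 2.64, 3.11 and 2.91 at low intake. There the thinly covered high-intake library lay above all low-intake libraries, so the groups overlapped. Genes of this family have close copies in cattle, and how reads were divided between them is not given in the sources used here, so both sets of values are uncertain.

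RGS5, a regulator of G protein signalling known as a pericyte marker (chr3:6424849-6427184, last exon), was at 1.75, 2.3, 2.03 and 4.56 at high intake and at 7.61, 13.8, 8.51 and 7.93 at low intake. Each low-intake steer was above each high-intake steer. The difference was -1.85 ± 0.46 (log2, SE, limma adjusted p = 0.869). It was -1.33 with the first-exon index as a covariate and -1.22 with low coverage of first exons as a term.

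PLAT, tissue-type plasminogen activator, which starts fibrin breakdown (chr27:36738830-36739706, last exon), was at 1.82, 1.52, 1.64 and 0.91 against 3.92, 1.99, 2.85 and 5.37. SERPINI1, or neuroserpin, a serpin that inhibits this protease (chr1:100481541-100481748, exon 5 of 9), was at 2.11, 1.47, 0.51 and 2.01 against 2.75, 7.01, 3.56 and 3.48. Both were lower in all 4 high-intake steers than in any low-intake steer. The log2 differences were -1.16 ± 0.32 and -1.47 ± 0.44 (SE, limma adjusted p = 0.869 for each).

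SLC26A3, a chloride-bicarbonate exchanger of epithelia (chr4:49078650-49078965, exon 7 of 21), was at 6.15, 14.1, 9.66 and 16.2 against 30.2, 35.9, 30.8 and 17.2. The groups were narrowly apart, the closest values being those of the thinly covered replicate 4 of either group. The difference was -1.34 ± 0.39 (log2, SE, limma adjusted p = 0.869). SMARCA1, the ATPase of an ISWI chromatin remodeller (chrX:13373239-13373452, exon 23 of 25), was at 0, 0.12, 0.16 and 0.18 against 0.67, 1.22, 0.92 and 0.81. These are low levels in a region of 214 bases, without overlap between the groups.

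S100Z, a calcium-binding protein of the S100 family, was at 0.08, 1.29, 0.11 and 0.66 against 1.65, 3.44, 1.69 and 5.21. CA8, a carbonic anhydrase relative without enzyme activity, was at 0.18, 0.28, 0.13 and 0.58 against 0.81, 1.21, 0.98 and 0.61. PGM5, a muscle-type adherens junction protein related to phosphoglucomutase, was at 1.74, 1.66, 1.08 and 1.51 against 3.74, 2.53, 1.94 and 3.63. In these genes, too, the low-intake steers were the higher ones without overlap.

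LYPLAL1, a lysophospholipase-like protein, was at 0.83, 1.08, 0.61 and 1.41 against 2.63, 4.26, 3.16 and 1.74. The gene listed as LOC782061 was at 20.5, 41.8, 44.2 and 34.2 against 75.2, 67.4, 67.4 and 112. RPS15A, a ribosomal protein, was at 1.80, 1.30, 2.42 and 3.56 against 4.37, 5.79, 3.77 and 5.84 in a region of 4397 bases made of its last exon and intergenic sequence. Ribosomal protein genes have many near-identical copies, so the value for RPS15A is uncertain. Of the 24 genes named so far by rank, 11 with higher and 12 with lower estimates were apart in the same direction within both coverage classes. These genes were picked by their p in this contrast, which favours such separation. Groups that do not overlap, as in 8 of the higher and 12 of the lower genes, are apart within both classes by necessity. The counts are thus a description only. Among all tested genes there were 160 (1.84%) and 329 (3.78%).

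The cornified surface layers gave the list with the highest median when all libraries were used without a coverage term. Of 26 measured members of 61, 24 had a higher and 2 a lower estimate at high intake, where 45.5% of all tested genes had a higher one, and 0 members passed the test. In the regions used for the fit, 0 members had groups without overlap, against 0.276% higher and 1.22% lower among all tested genes. The summed level lay between 6200 and 13667 at high intake and between 5140 and 9018 at low intake, so the sums overlapped. The median log2 difference was 1.06, which is 1.12 above the median of all genes tested (-0.06); the distance to that median was 1.13 after median-ratio scaling and 1.27 after quantile normalization. Leaving out 1 library at a time gave medians from 0.72 (without high-intake replicate 3) to 1.76 (without high-intake replicate 4). With low coverage of first exons as a term in the fit, the median was 0.30, below those of antigen presentation (0.39) and leukocyte markers (0.34). In bulk tissue, fewer cells of a type and less RNA per cell cannot be told apart.

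KLK10, a kallikrein protease of the upper epidermal layers (chr18:57447125-57450054 for the region of its last exon), had levels of 5.24, 2.56, 10.2 and 2.91 in that region at high intake and of 0.31, 0.92, 0.78 and 0.09 at low intake. All high-intake steers were above all low-intake steers, the thinly covered one included. In its best covered region, exon 5 (chr18:57450661-57450796), the thinly covered high-intake library was listed at 0 beside 7.33, 2.80 and 10.2 in the others, against 0, 0.40, 0.97 and 0.26 at low intake. The log2 difference was 2.54 ± 1.37 in exon 5 (SE, limma adjusted p = 0.869) and 3.16 in the last exon, and that in exon 5 was 1.52 with low coverage as a term. KLK10 is described whatever its values, and it was chosen with earlier results of these data known, so its direction is no independent evidence.

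CNFN, or cornifelin, a protein of the cornified envelope (chr18:51240144-51242432), was at 10.2, 7.12, 12.8 and 0.32 at high intake and at 1.03, 0.35, 0.50 and 0.16 at low intake. The 3 well covered high-intake libraries were far above the rest, and the thinly covered one lay within the low-intake range. PI3, or elafin, a protease inhibitor of inflamed and cornifying epithelium (chr13:74273958-74274986), ranged widely, with 1819, 77.4, 132 and 313 against 15.4, 106, 179 and 15.3. The groups of PI3 overlapped.

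S100A9, a subunit of the antimicrobial protein calprotectin (chr3:17175977-17179480) was at 573, 60.9, 258 and 167 against 35.9, 114, 58.5 and 8.36, and its partner S100A8 was at 734, 247, 816 and 766 against 326, 633, 383 and 212. S100A12, the member of the list with the highest level, was at 5685, 2484, 4455 and 5479 against 3273, 4630, 2796 and 2708. In all 3, high-intake replicate 2 was the lowest of its group and low-intake replicate 2 the highest of its own, and the groups overlapped. The log2 differences were 2.38 ± 1.03, 0.69 ± 0.45 and 0.40 ± 0.29 (SE).

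Other envelope genes varied within groups as much as between them. TGM1, which cross-links the envelope, was at 60.7, 48.8, 36.5 and 9.06 against 27.2, 6.87, 13.1 and 8.42. Involucrin, IVL, the scaffold of the envelope, was at 294, 481, 534 and 207 against 499, 128, 441 and 340. The 2 members with lower estimates were TGM5 (-0.06) and KRT10 (-0.05), both near 0. IRX3, a homeobox transcription factor also described whatever its values, was at 6.89, 7.83, 7.24 and 8.29 against 7.40, 5.76, 5.25 and 6.35, with a log2 difference of 0.29 ± 0.22 (SE). Without the thinly covered libraries the difference of IRX3 was -0.02.

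Genes of barrier lipids and lipoxygenases had estimates of both signs. Of 20 measured members of 33, 12 had a higher and 8 a lower estimate, with a median of 0.08, which was -0.04 after quantile normalization. ALOX12, a lipoxygenase of epithelia, was at 9.54, 4.83, 13.9 and 7.47 against 5.46, 3.91, 3.87 and 3.14. ELOVL3, which lengthens saturated and monounsaturated fatty acids, was at 0.18, 0.47, 0.04 and 0.35 against 0.76, 0.94, 0.60 and 0.72 and did not overlap. ELOVL6 was at 5.12, 4.64, 5.22 and 11.6 against 8.90, 15.0, 9.28 and 6.62, and SCD, the stearoyl-CoA desaturase with the highest level of the list, at 40.1, 34.4, 16.5 and 55.8 against 29.0, 69.6, 56.9 and 26.8. The groups of ELOVL6 and SCD overlapped.

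Genes of ketone body synthesis and the fatty acid oxidation that feeds it mostly had lower estimates at high intake. Of 14 measured members of 19, 10 were lower and 4 higher, 3 of the lower ones had an unadjusted p under 0.05 (2.53% of all tested genes did) and 0 passed the test. The median was -0.49, which is 0.42 below that of all genes tested. Leaving out single libraries gave medians from -0.63 to -0.30. Leaving out the thinly covered ones, which keeps 1 low-intake animal, gave -0.86.

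ACAT1, the mitochondrial thiolase that makes acetoacetyl-CoA (chr15:18017705-18017812, exon 4 of 12), was at 39.5, 70.01, 62.0 and 99.1 at high intake and at 139, 139, 116 and 115 at low intake. Here all low-intake steers were above all high-intake steers. The difference of ACAT1 was -0.98 ± 0.31 (log2, SE, limma adjusted p = 0.869).

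The trifunctional protein subunit HADHB (chr11:73224770-73224894, exon 10 of 16) was at 27.0, 28.4, 44.7 and 52.9 against 56.7, 53.7, 47.6 and 68.1. HADH, the short-chain hydroxyacyl-CoA dehydrogenase (chr6:18459824-18459923, last exon), was at 183, 244, 222 and 514 against 442, 369, 342 and 621. SLC16A1, the monocarboxylate transporter MCT1 that carries ketone bodies and lactate (chr3:30559092-30565145, last exon), was at 53.9, 54.8, 50.2 and 174 against 117, 182, 101 and 164. In these 3 genes the well covered high-intake steers were the lowest, and the thinly covered one, replicate 4, lay among the low-intake steers. SLC16A1 had a log2 difference of -0.94 ± 0.47 with all libraries and of -1.37 without high-intake replicate 4, but of -0.49 with the first-exon index as a covariate and -0.35 with low coverage of first exons as a term. Members with higher estimates included ACADS, OXCT1 and ECHS1, with log2 differences of 0.66, 0.43 and 0.07.

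Of genes listed for the activation and use of short-chain fatty acids, which include a nuclear receptor and lactate dehydrogenase A, 18 of 25 were measured. Of these 18 members, 12 had a lower and 6 a higher estimate, with a median of -0.15, which is 0.09 below that of all genes. The median ran from -0.39 (without low-intake replicate 2) to -0.05 (without low-intake replicate 1), and it was -0.44 with the first-exon index as a covariate, where that of ketone body synthesis was -0.48. MCEE, an epimerase of the propionate pathway, was at 9.78, 9.29, 7.41 and 26.5 against 22.8, 17.8, 23.9 and 17.7. PCCB, a subunit of propionyl-CoA carboxylase, was at 19.1, 19.9, 41.8 and 53.3 against 45.9, 54.1, 41.7 and 47.3. PPARA, the nuclear receptor of fatty acid oxidation, was at 0.69, 1.58, 1.55 and 3.27 against 3.94, 2.77, 2.18 and 2.63. All 3 overlapped, each through high-intake replicate 4 and PCCB also through replicate 3. LDHA, lactate dehydrogenase A, had the highest level of the list, 645 ± 300 against 728 ± 183 (SD, n = 4 each), and a log2 difference of -0.25 that was 0.24 with low coverage of first exons as a term.

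**Figure D3:**
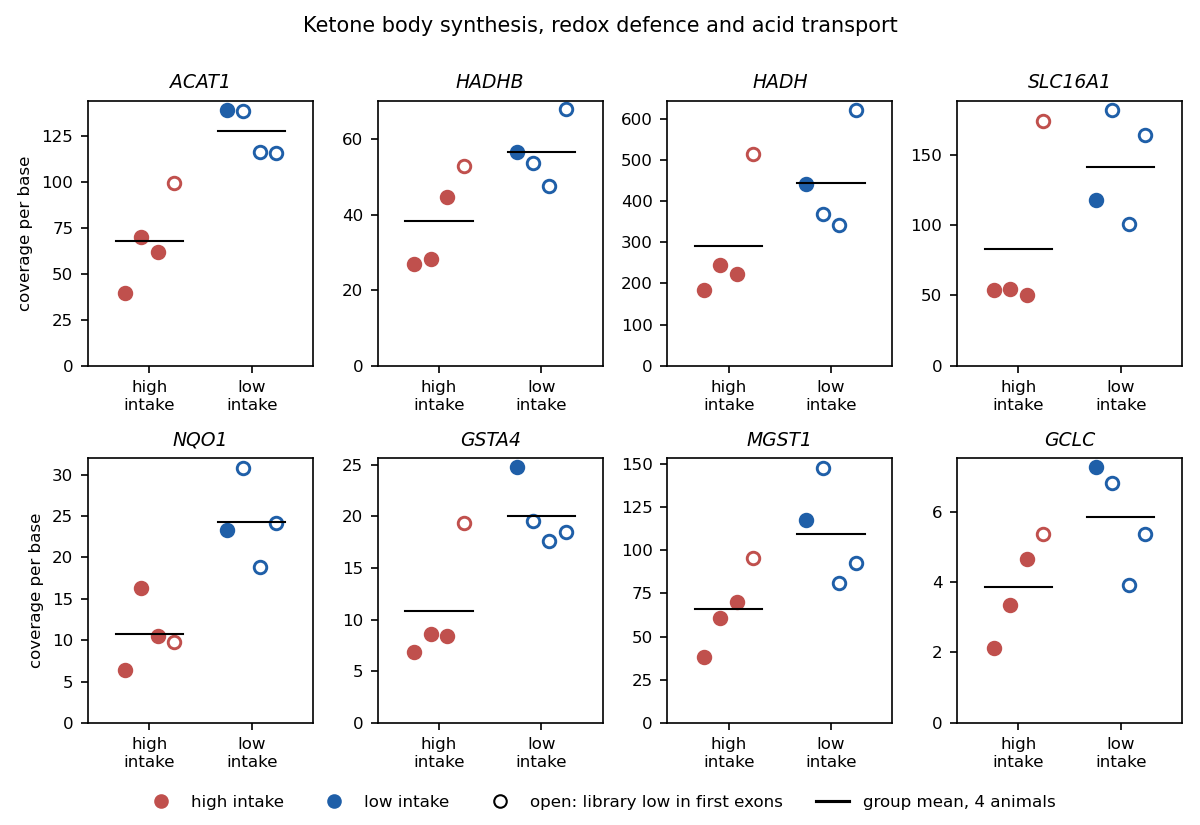
Level in each of the 8 high-gain steers (coverage per base, axis from 0; replicates 1 to 4 from left to right) of genes of ketone body synthesis, redox defence and the transporter SLC16A1; lines are means of 4 animals and open circles are thinly covered libraries. The groups are apart in ACAT1 and NQO1; in HADH, GSTA4 and SLC16A1 the thinly covered high-intake library lies among the low-intake steers.

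Transport of acid, ions and bicarbonate gave no common direction, with 9 higher and 8 lower estimates among 17 measured members of 30. The median of 0.07 was -0.11 after quantile normalization. Of these genes SLC26A3, described above, had the smallest p. ATP1B3, a beta subunit of the sodium pump, was at 37.0, 34.7, 51.2 and 85.5 against 61.5, 81.1, 61.1 and 86.1. CA1, the carbonic anhydrase with the highest level of the list, was at 1099, 733, 1426 and 3377 against 1690, 2151, 1195 and 1346. Both overlapped between the groups, and the estimate for CA1 (-0.15) was 0.35 with low coverage of first exons as a term.

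Of the uptake of urea, water and glucose, 6 of 14 listed genes were measured. SLC14A1, the urea transporter UT-B that carries urea across the rumen wall (chr24:45919996-45924558), was at 36.1, 55.8, 75.0 and 74.0 against 73.0, 86.9, 102 and 65.4. SLC5A1, the sodium-glucose transporter SGLT1, was at 16.4, 8.25, 15.6 and 17.4 against 9.41, 14.5, 10.4 and 5.64. The groups of both overlapped. AQP3, a water and glycerol channel read in its first exon, was at 29.8, 59.0, 25.7 and 0.18 against 38.0, 0.38, 0.15 and 0.16, so that it separated the coverage classes and not the intake groups.

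Genes of glutathione and redox defence were divided. Of 35 measured members of 38, 15 had a higher and 20 a lower estimate; the median, -0.06, was that of all genes tested and was 0.07 after median-ratio scaling. NQO1, a quinone reductase (chr18:36916419-36916586, exon 2 of 6), was at 6.35, 16.3, 10.5 and 9.82 against 23.3, 30.8, 18.8 and 24.2, and its groups did not overlap. GSTA4, a glutathione transferase that clears lipid aldehydes (chr23:24963166-24964358, last exon), was at 6.89, 8.60, 8.38 and 19.4 against 24.7, 19.5, 17.6 and 18.4, with an overlap through high-intake replicate 4. MGST1, a microsomal glutathione transferase (chr5:93941973-93942384), was at 38.0, 60.9, 70.3 and 95.8 against 117, 148, 81.0 and 92.8. The log2 differences of the 3 genes were -1.23 ± 0.40, -0.999 ± 0.34 and -0.76 ± 0.28 (SE), with a limma adjusted p of 0.869 each. GCLC, the catalytic subunit of glutathione synthesis, was at 2.12, 3.35, 4.64 and 5.36 against 7.26, 6.80, 3.92 and 5.37. PRDX6, the peroxiredoxin with the highest level of the list, did not share this direction: it was at 4288, 2236, 2746 and 3565 against 2242, 3497, 4048 and 1943.

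The unfolded protein response had 17 higher and 7 lower estimates among 24 measured members of 26, with a median of 0.23. That median was -0.27 without the thinly covered libraries and -0.05 without low-intake replicate 4. It was 0.16 with the first-exon index as a covariate and 0.10 with low coverage of first exons as a term. After median-ratio scaling it was 0.35, and after quantile normalization 0.15. PDIA4, an endoplasmic reticulum chaperone, was at 32.99, 25.8, 20.7 and 11.5 against 24.9, 9.59, 3.65 and 3.98. SDF2L1, a cofactor of the chaperone BiP, was at 16.5, 13.9, 6.42 and 0.35 against 4.5, 0.28, 0.54 and 0.58, and CRELD2, another protein of this compartment, at 5.61, 3.49, 2.81 and 0.07 against 2.96, 0.15, 0.21 and 0.21. In SDF2L1 and CRELD2 the 4 thinly covered libraries were the lowest of the 8. BiP itself, HSPA5, was at 173, 124, 234 and 259 against 242, 322, 108 and 67.4.

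In the insulin and IGF axis, 13 of 18 measured members of 26 had higher and 5 lower estimates, with a median of 0.29 that was -0.23 with low coverage of first exons as a term. IGFBP7, an IGF-binding protein of vessels and matrix (chr6:74072622-74072853, last exon), was at 16.9, 11.97, 10.9 and 20.4 against 22.6, 43.4, 27.0 and 26.9. It was lower in every high-intake steer than in any low-intake steer, with a difference of -0.99 ± 0.31 (log2, SE, limma adjusted p = 0.869) and of -0.61 with low coverage as a term. IGF2, a growth factor, was at 3.47, 5.10, 2.77 and 1.52 against 2.37, 1.90, 0.52 and 1.88. IGFBP5, the member with the highest level, was at 28.6 ± 5.99 and 23.8 ± 4.37 (SD, n = 4 each). Both IGF2 and IGFBP5 overlapped.

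Markers of the connective tissue core mostly had lower estimates at high intake, as had 4745 of all 8703 tested genes. In the list of collagen and extracellular matrix, 20 of 27 measured members of 34 had a lower and 7 a higher estimate, with a median of -0.46, which is 0.40 below that of all genes. The summed level of the members lay between 360 and 582 at high intake and between 588 and 754 at low intake. S100A4 alone ran from 67.6 to 242 over the 8 libraries, so the gap between the sums is small beside this 1 member. No collagen or matrix member passed the test. Medians ran from -0.63 to -0.43 over fits without 1 library, and the median was -0.75 without the thinly covered libraries. With low coverage of first exons as a term it was -0.48. In 4 members (SPARC, FBLN1, FBN1 and COL1A1) high intake was lower within both coverage classes, and in 0 it was higher within both; among all tested genes the shares were 3.78% and 1.84%.

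SPARC, a collagen-binding matrix protein (chr7:64877768-64879526, last exon), was at 60.4, 55.7, 41.7 and 67.5 against 89.4, 117, 72.3 and 83.2, without overlap. FBLN1, a fibulin of basement membranes and elastic fibres (chr5:116695333-116696152, last exon), was at 13.5, 14.8, 10.5 and 11.9 against 19.0, 20.2, 17.2 and 12.3. COL15A1, a collagen of vascular basement membranes, was at 6.59, 5.15, 3.12 and 7.58 against 10.2, 15.5, 7.03 and 8.20. The last 2 overlapped by a single low-intake library each. The differences were -0.68 ± 0.25, -0.42 ± 0.21 and -0.86 ± 0.42 (log2, SE).

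TNC, tenascin C, was at 5.90, 3.05, 0.96 and 2.90 against 5.47, 8.31, 5.10 and 3.85. S100A4, the member with the highest level of this list, was at 216, 204, 67.6 and 173 against 242, 97.9, 209 and 233. Both overlapped. COL1A1, a chain of type I collagen, is also described whatever its values (chr19:37104264-37104538, exon 50 of 51), was at 29.3, 32.2, 33.4 and 0 against 34.0, 0.10, 2.84 and 4.87. It was high in the 4 well covered libraries and low in the 4 thinly covered ones, and its estimate of 1.25 was -0.11 without the latter. Within each coverage class the high-intake libraries were nonetheless the lower ones.

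Endothelial markers, too, mostly had lower estimates. Of 17 measured endothelial genes of 21, 11 had a lower and 6 a higher estimate, and the median was -0.32. In 6 members (PECAM1, CDH5, TIE1, ENG, ERG and PLVAP) high intake was lower within both coverage classes, as in 3.78% of all tested genes. The summed level lay between 21.4 and 48.9 at high intake and between 24.7 and 61.4 at low intake. PECAM1, the junction protein CD31 (chr19:49175817-49177027, last exon), was at 4.39, 3.52, 2.41 and 3.89 against 5.50, 4.78, 4.39 and 7.61. KDR, the main VEGF receptor, was at 2.50, 0.87, 0.57 and 2.68 against 5.21, 4.02, 2.00 and 3.81. TEK, the angiopoietin receptor, was at 1.37, 1.23, 1.09 and 2.01 against 3.35, 3.25, 1.53 and 2.50. CDH5, vascular cadherin, was at 0.81, 0.76, 0.59 and 0.57 against 1.31, 1.14, 0.60 and 1.51. In all 4 genes the low-intake mean was higher, low-intake replicate 3 was the lowest of its group, and PECAM1 met the high-intake group at a single shared value of 4.39.

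Not every endothelial gene went that way. PLVAP, the member with the highest level, was at 8.56, 11.4, 6.76 and 0.43 against 13.2, 0.70, 2.23 and 6.76, with an estimate of 0.27 although the high-intake libraries were lower within each coverage class. VWF and EGFL7 were each listed at 0 in 4 of the 8 libraries. The endothelial median was -0.02 without high-intake replicate 4 and -0.60 without the thinly covered libraries. With low coverage of first exons as a term it was -0.58.

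Of 7 measured pericyte genes of 11, 5 had a lower and 2 a higher estimate, with a median of -0.67. The summed pericyte level lay between 6.65 and 13.8 at high intake and between 14.3 and 17.0 at low intake. RGS5, chosen by its p in this contrast, made up 7.61 to 13.8 of the sum at low intake, so the sums are not independent of it. KCNJ8, the pore of a vascular potassium channel (chr5:88858936-88860057, last exon), was at 0.52, 0.32, 0.37 and 0.21 against 0.92, 0.36, 0.74 and 1.35. MCAM, or CD146, was at 1.46, 1.07, 0.50 and 0.72 against 1.22, 1.5, 1.16 and 2.04. Both overlapped. Of the remaining markers, HIGD1B was at 0 in 3 of the 8 libraries and NDUFA4L2 in 2.

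Smooth muscle genes had 8 lower and 5 higher estimates among 13 measured of 16 and a median of -0.73, which became 0.08 without high-intake replicate 4. The median was -0.69 with the first-exon index as a covariate and -0.78 with low coverage of first exons as a term. In each of these 2 fits 13 of 13 members were lower. In last-exon regions the median was -0.05. MYLK, myosin light chain kinase (chr1:68578357-68580463), was at 5.50, 3.35, 1.88 and 6.07 against 6.99, 20.5, 10.6 and 5.41. PLN, phospholamban, was at 0.32, 0.41, 0.21 and 0.43 against 0.67, 1.09, 0.59 and 0.89 without overlap, and CALD1, caldesmon, at 5.21, 3.05, 3.84 and 6.72 against 6.76, 15.3, 7.69 and 5.39. In MYLK and CALD1, low-intake replicate 2 was the highest of the 8 libraries and low-intake replicate 4 overlapped with high intake. The summed level ran from 19.1 to 90.1 at high intake and from 48.3 to 61.5 at low intake, so the groups overlapped. The part of vessel, muscle and matrix content in the differences of other genes was not tested. Markers of nerve and glia (3 measured of 12) summed to between 3.31 and 9.44 at high and between 4.94 and 10.6 at low intake, with SOX10 listed at 0 in all 8 libraries. Those of erythrocytes (2 measured of 8) summed to between 0.64 and 2.78 and between 0.26 and 1.67, with ALAS2 and HBM at 0 in all 8 and HBB in 7.

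Genes of immune cells and defence had estimates of both signs. Of 20 measured leukocyte markers of 45, 16 had a higher and 4 a lower estimate, with a median of 0.43 that was 0.12 without high-intake replicate 1 and -0.09 without the thinly covered libraries. The summed level of leukocyte markers lay between 65.2 and 115 at high intake and between 56.5 and 115 at low intake. CD3E, a chain of the T cell receptor complex, was at 3.98, 1.13, 0.82 and 1.56 against 1.32, 0.33, 0.57 and 0.78. CD3G, another chain of that complex, went the other way, with 6.96, 24.7, 5.13 and 12.7 against 14.3, 50.7, 31.6 and 12.2. Both chains overlapped between the groups, and GZMA, CPA3 and TPSB1, markers of cytotoxic and mast cells, were listed at 0 in all 8 libraries.

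Antigen presentation genes had 10 higher and 3 lower estimates among 13 measured of 24, with a median of 0.69. It was 0.40 without high-intake replicate 1, 0.31 without the thinly covered libraries and 0.39 with low coverage of first exons as a term. PSMB8, an inducible proteasome subunit (chr23:7113298-7113642, last exon), was at 7.87, 3.12, 2.71 and 1.49 against 2.68, 0.16, 0.64 and 1.22, and its partner PSMB9 at 3.33, 1.51, 2.20 and 0.25 against 1.10, 0, 0 and 0.74. JSP.1, a class I histocompatibility gene, was at 40.5, 29.8, 19.5 and 33.3 against 0.14, 12.4, 7.09 and 32.2. Class I genes are near-identical copies of each other and differ between animals, so the value of JSP.1 in 1 animal is uncertain. B2M, the shared light chain of these proteins and the member with the highest level, was at 112, 46.8, 105 and 261 against 73.9, 105, 63.2 and 93.5. The groups of all 4 genes overlapped.

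Innate sensing and inflammation had 15 higher and 8 lower estimates among 23 measured of 39, and a median of 0.34. The median was 0.15 without high-intake replicate 4 and 0.10 without the thinly covered libraries. CD14, the coreceptor for lipopolysaccharide (chr7:53446013-53449310), was at 23.3, 10.4, 32.0 and 21.7 against 10.9, 15.7, 12.7 and 6.45. TLR5, the flagellin receptor, was at 2.02, 1.66, 0.71 and 3.12 against 3.2, 3.81, 3.14 and 2.05, and the alarmin IL33 at 0, 0.26, 0.35 and 1.14 against 1.92, 1.30, 0.58 and 0.70. NFKBIA, the inhibitor of NF-kappa-B with the highest level of the list, was at 18.8, 13.8, 25.9 and 30.3 against 15.8, 18.3, 14.9 and 18.1. CD14 and NFKBIA thus had the higher mean at high intake and TLR5 and IL33 at low intake, all with overlap.

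Of 20 measured interferon-induced genes of 37, 14 had a lower and 6 a higher estimate, with a median of -0.39. It was -0.06 without high-intake replicate 3, -0.11 without low-intake replicate 4 and -0.18 in last-exon regions. Apart from TRIM5, the smallest p belonged to RSAD2, or viperin, an antiviral enzyme, at 0.49, 0.16, 0.35 and 0.57 against 1.44, 0.81, 0.37 and 1.88. Low-intake replicate 3 lay within the high-intake range, so the groups of RSAD2 overlapped.

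**Figure D4:**
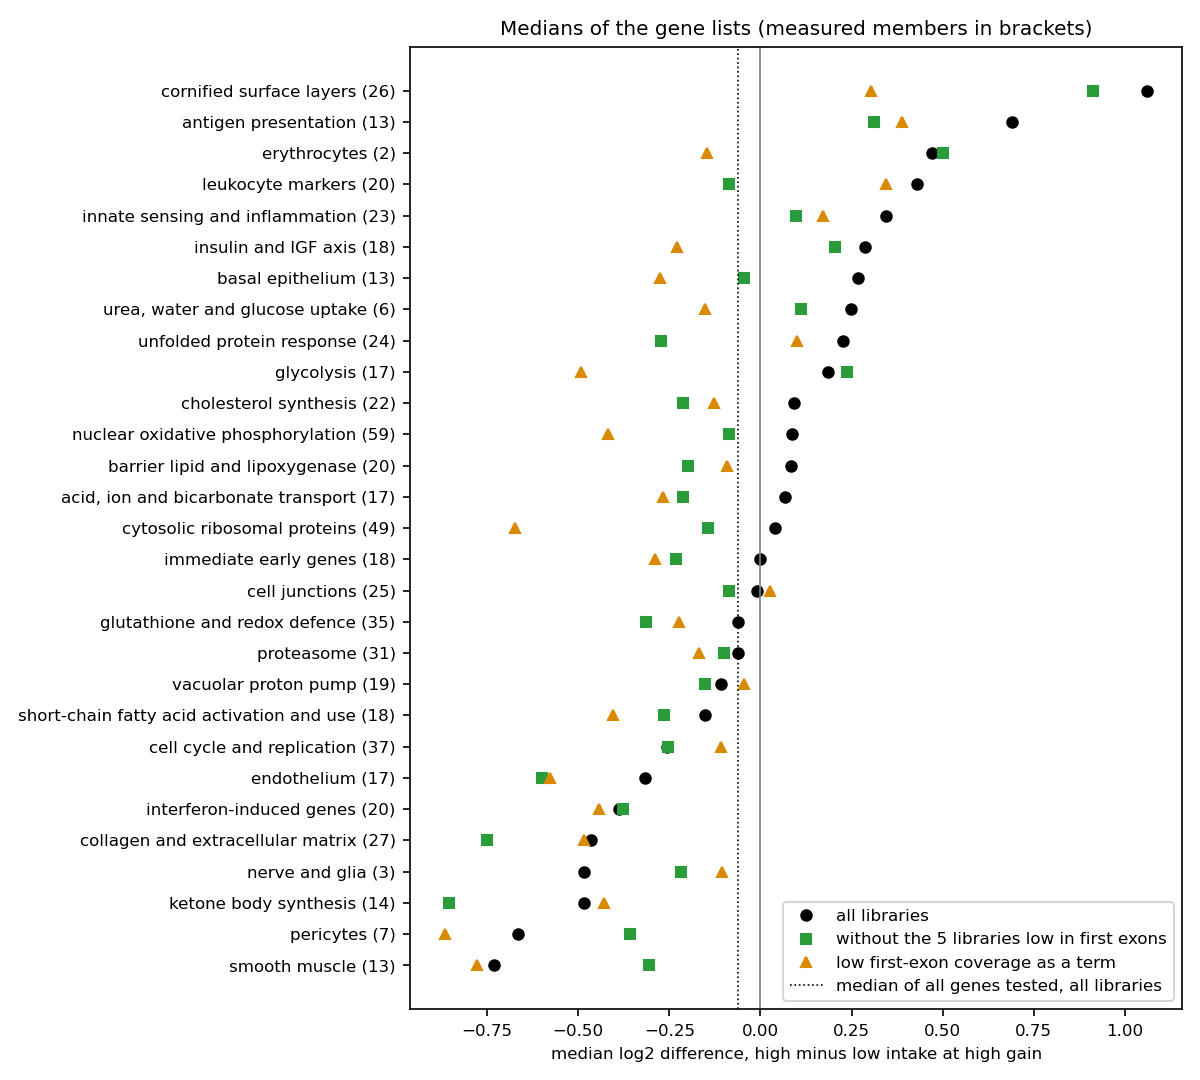
Median log2 difference, high minus low intake at high gain, of each of 29 gene lists, with the number of measured members in brackets. Circles use all libraries, squares leave out the thinly covered libraries of the study, and triangles add low coverage of first exons as a term. Squares rest on 1 low-intake animal at high gain. The dotted line is the median of all 8703 genes tested (-0.06). With all libraries the cornified layers are highest (1.06) and smooth muscle lowest (-0.73).

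Whether the difference with intake at high gain was itself different from that at low gain was tested as an interaction in the same fit. Of 8703 genes, 0 (0%) passed, the smallest adjusted p was 1.00, and 40 genes had an unadjusted p under 0.05. MX1, an interferon-induced antiviral GTPase, had the smallest p. Its level at high gain was 1.82 ± 0.835 with high and 2.15 ± 1.07 with low intake, and at low gain 5.15 ± 1.08 with high and 1.04 ± 0.112 with low intake (SD, n = 4 each). The interaction was -2.41 ± 0.51 (log2, SE, limma adjusted p = 1.00). TPRG1, named as a gene regulated by p63, was at 6.78 ± 4.41 and 6.13 ± 1.28 at high gain and at 10.99 ± 3.96 and 2.50 ± 0.811 at low gain. In both genes the 4 low-gain steers with high intake lay above those with low intake, while the high-gain groups overlapped.

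FAM48A, listed in RefSeq as a synonym of SUPT20H, a subunit of the SAGA coactivator, was at 3.06 ± 0.805 and 4.78 ± 0.450 at high gain and at 4.76 ± 0.851 and 3.03 ± 0.714 at low gain, with an interaction of -1.31. TRIM5 on chromosome 9 was at 2.43 ± 1.397 and 2.83 ± 1.62 at low gain, where its intake groups overlapped, with an interaction of -2.89. In the other direction, PEPD, a dipeptidase of collagen breakdown, was at 5.67 ± 0.517 and 4.08 ± 0.759 at high gain and at 5.62 ± 1.88 and 8.34 ± 1.04 at low gain. PTPRE, a receptor-type phosphatase, and FANCD2, a DNA crosslink repair protein, had interactions of 1.24 ± 0.45 and 1.496 ± 0.54 (log2, SE).

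The low-gain steers share no animal with this comparison and give the same measure in other samples. Of the 58 genes with an unadjusted p under 0.05 that were higher with intake at high gain, 55 (94.8%) also had a higher estimate at low gain, and of the 220 lower ones 197 (89.5%) also had a lower one. Over all tested genes the shares were 86.1% and 78%. At low gain, too, the thinly covered library was a low-intake one. Without the thinly covered libraries, 36 of the 58 (62.1%) and 178 of the 220 (80.9%) had at low gain the direction they had at high gain with all libraries. Of all genes higher or lower at high gain in that reduced fit, 33.2% and 62.5% had the same direction at low gain. The direction at high gain thus comes from different fits, and the reduced one has 1 low-intake animal there. The shares cannot be set against each other.

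Of the 24 genes named by rank, 12 of 12 higher and 11 of 12 lower ones had the same direction at low gain, the exception being SLC26A3. SERPINB1 was at 24.6 ± 5.40 and 13.6 ± 8.38 at low gain with high and low intake, GALNT6 at 4.69 ± 0.956 and 2.31 ± 1.30, and PTGES at 2.32 ± 0.489 and 0.915 ± 0.690 (SD, n = 4 each). KLK10 in its last exon lay between 4.39 and 8.25 at low gain with high intake and between 0.02 and 1.08 with low intake, without overlap. SMARCA1 was at 0.380 ± 0.410 and 1.15 ± 0.502, and SLC16A1 at 63.8 ± 22.6 and 147 ± 92.7. SLC26A3, in contrast, was at 22.1 ± 8.51 and 17.9 ± 6.63 at low gain, with an interaction of -1.66 ± 0.56 (log2, SE, limma adjusted p = 1.00).

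Among the lists, the cornified layers had a median of 0.78 at low gain, with 22 of 26 members higher, and collagen and matrix of -0.60, with 19 of 27 lower. Ketone body synthesis had -0.30, with 10 of 14 lower. The medians at low gain were 0.15 for endothelium, 0.10 for pericytes, 0.10 for smooth muscle and 0.28 for interferon-induced genes, against negative ones at high gain. The medians of the members' own interactions (the intake effect at high gain minus that at low gain), in the same order, were -0.16, -0.24, -0.16 and -0.12. No list was tested for this difference.

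**Figure D5:**
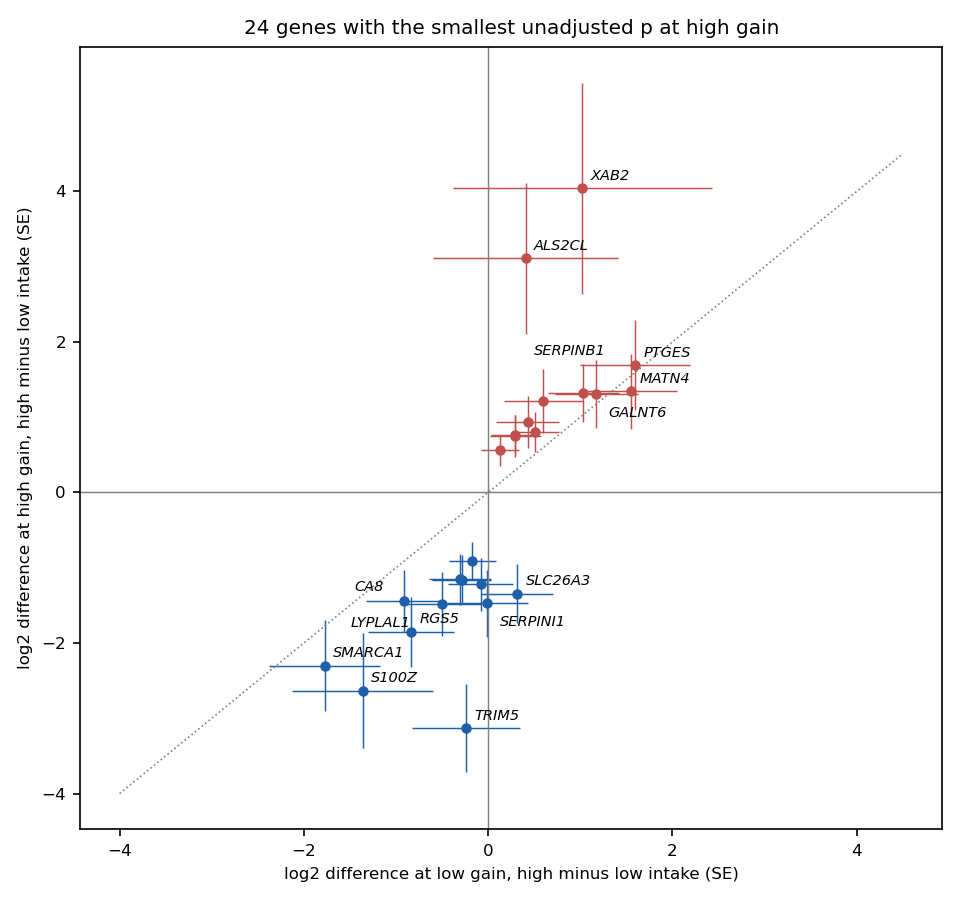
Log2 difference between high and low intake at high gain (vertical) against that at low gain (horizontal) for the 24 genes with the smallest unadjusted p at high gain, 12 in each direction; bars are SE of the limma fit and the dotted line marks equal differences. The genes were chosen by the vertical value; 23 of the 24 have the same sign on both axes and SLC26A3 does not.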

How the data were processed

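Polyadenylated RNA of rumen papillae was sequenced in single reads 50 bases long, per the labels' protocols, and TopHat2 2.08b and the genome UMD3.1 were used, per the submitters' processing notes. How the alignment was set up, which annotation was used and how coverage was computed is not given in the sources used here. In the deposited table there are 2351373 regions, each with 1 signal value per library; as the values show, the authors gave mean coverage per base times 1 factor per library, so that value times length sums to 591.1 to 595.9 Mb. The authors' deposited ratio column and p-value column were not used. The deposited values hold no read counts; reads per library were estimated from the value of a single read, and with no counts no interval was computed.

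A gene's level was its exon region (113576 in all, 526 with exons of several genes left out) with the highest mean over 16 libraries. Of 11996 genes, 8703 with at least 0.5 in at least 4 of the 8 high-gain libraries were tested and 3293 were not. 63 tested symbols have regions on several chromosomes. Levels as log2(value + 0.1) entered a linear model (limma 3.58.1, robust and with a trend, under R 4.3.3) with 1 mean for each of the 4 groups of the 16 libraries, with two-sided tests, Benjamini-Hochberg adjustment over genes and a threshold of 0.05. A difference on the log2(value + 0.1) scale understates changes of low genes. The script was tested on simulated data. Library measures used exact permutation tests with 70 arrangements. The first-exon index used genes with at least 6 exons and single-exon regions with a mean of at least 1, and libraries below -1.5, a cut set after seeing the values, count as thinly covered. RefSeq served only for synonyms and for the chromosome of TRIM5. The 23 alternatives changed the pseudocount, filter, scaling, gene level, samples or covariates or left out 1 library; low coverage as a 2-level term, alone and with last-exon regions, and the comparison within coverage classes were added after seeing the data.

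Named are the 12 genes per direction with the smallest unadjusted p, 4 per direction for the interaction, up to 4 members with the smallest p and the most abundant member of each list described, and KLK10, COL1A1, IRX3 and SLC16A1; other members were named after their values were seen, and some genes under this rule are not reported here. The members and all 29 lists (606 of 836 genes measured) were chosen with earlier results of these data known. Lists have no test; medians not printed elsewhere are 0.27 for basal epithelium, -0.01 for cell junctions, -0.11 for the vacuolar proton pump, 0.04 for ribosomal proteins, -0.06 for the proteasome, 0.09 for oxidative phosphorylation, 0.19 for glycolysis, 0.09 for cholesterol synthesis, -0.26 for the cell cycle, 0.00 for immediate early genes, -0.48 for nerve and glia (3 measured), 0.47 for erythrocytes (2 measured) and 0.25 for urea, water and glucose uptake. Some of these medians changed sign with low coverage of first exons as a term. They were then -0.28 for basal epithelium, -0.67 for ribosomal proteins, -0.42 for oxidative phosphorylation and -0.49 for glycolysis, beside -0.11 for all genes tested. P-values measure only the spread between these animals.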

Additional observations from a re-analysis of the deposited data

Results flagged for a closer look

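Among 66 groups of 4 values (the 24 genes named by rank, the 4 genes set by name and the library measures, at high and at low intake), 7 had 1 library whose distance to the nearest other value took up more of the group's range than Dixon's critical value for 4 samples allows. Chance flags about 1 in 20 groups of independent, normally distributed values. That share cannot be applied here, since most of the genes were picked from these data and the groups share libraries. In 5 of the 7 the library was high-intake replicate 4, the thinly covered library of its group. Its first-exon index was -2.64, against -1.03 to -0.76 in the other 3, and 456 of the tested genes were listed at 0 in it, against 26 to 39. COL1A1 was at a log2 level of -3.32 in it, which is a coverage of 0, against 29.3 to 33.4. CELSR2 was at a log2 level of 2.55, a coverage of 5.74 against 9.15 to 9.93, and SLC16A1 at 7.45, a coverage of 174 against 50.2 to 54.8. The other 2 flags fell on low-intake replicate 1, the well covered library of its group: ALS2CL was at a log2 level of 0.67 (coverage 1.49) and XAB2 at 0.68 (coverage 1.5), where the other 3 libraries were listed at 0. With 3 equal values the distance is the whole range by construction.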

How the results depend on the processing

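The groups were taken as different animals, so no paired analysis was made. No replicate number is found in the labels, and numbers here follow accession order. In each fit run, 0 genes were called, for the contrast and for the interaction. The 278 genes with an unadjusted p under 0.05 became 655 with the first-exon index as a covariate and 633 after quantile normalization. They became 156 to 1420 with 1 library left out. The smallest limma adjusted p of the contrast was 0.820 in the main fit. It was 0.0859 with the first-exon index as a covariate and 0.102 without high-intake replicate 4. Counts of the fit without the thinly covered libraries are left out, since it rests on 1 low-intake animal at high gain. The 40 genes of the interaction became 436 with that covariate and 92 after quantile normalization. They became 201 with low coverage as a 2-level term, 122 with that term and last-exon regions and 88 with no filter. With the stricter filter they became 23, with the mean over all exon regions 22 and with 1 library left out 34 to 85. Of 86 named genes followed, 16 reversed in at least 1 setting. Of the single values of named genes 1899 kept their direction and 41 did not. Some settings, such as a changed filter or limma without its trend and robust options, leave a gene's difference unchanged by construction. Leaving out the 5 thinly covered libraries of the study keeps 1 low-intake animal at high gain. Without those 5 libraries, the log2 difference was -0.11 for COL1A1, -0.017 for IRX3, -0.093 for AQP3, -0.50 for HSPA5, -0.16 for IGFBP5 and -0.60 for PLVAP. With the first-exon index as a covariate it was -1.27 for COL1A1, 0.14 for LDHA, 0.30 for CA1 and -1.48 for PLVAP. With low coverage as a 2-level term it was -2.06 for COL1A1, 0.24 for LDHA, 0.35 for CA1, -0.36 for AQP3, -0.43 for CRELD2, -0.029 for IGFBP5 and -1.92 for PLVAP. With that term and last-exon regions it was -0.10 for ALS2CL, -0.25 for COL1A1, 0.094 for HADHB, 0.24 for LDHA, 0.35 for CA1, -0.50 for AQP3, -0.43 for CRELD2, -0.029 for IGFBP5, -0.59 for PSMB9 and -1.34 for PLVAP, and the interaction was 0.078 for FAM48A. Last-exon regions alone gave -0.035 for PLVAP, and quantile normalization gave -0.19 for PRDX6. Leaving out 1 library at a time gave ranges that crossed 0 for COL1A1 (-0.078 to 3.33), SCD (-0.56 to 0.021), CA1 (-0.57 to 0.16), HSPA5 (-0.10 to 0.65), PRDX6 (-0.025 to 0.33), B2M (-0.0055 to 0.82), S100A4 (-0.60 to 0.093) and PLVAP (-0.45 to 1.28). The difference in tested genes listed at 0 ran from -146.8 to 61, and that in estimated reads from -1.81 to 0.588 M. The cause of these reversals was not tested.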
